A study of Mus musculus with 8 samples.

Results

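The genes described here are 36 endothelial and endocardial identity genes: junction and surface proteins, the angiopoietins and TIE receptors, other receptors and ligands with their signalling partners, secreted and angiogenic proteins, and the transcription factors of this lineage. They lie on 16 chromosomes. A differential peak was assigned to a gene if the nearest transcription start site (TSS) of any protein-coding gene was its own, or if the peak lay within 10 kb of the gene body. By this rule 26 of the 36 genes had at least 1 differential peak, against 41.8% of all protein-coding genes, and the genes together had 56 of the 15736 peaks.

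The peaks come from ATAC-seq of mouse hearts at E10.5, an assay of open chromatin in which Tn5 transposase cuts and tags the DNA it can reach. There were 4 *Chd4-CMko* samples and 4 WT samples, each a pool of several whole hearts, and the controls, littermates per the methods, are given as WT without further detail of their alleles. CHD4 is the ATPase of the NuRD chromatin remodelling complex, and *Chd4-CMko* hearts carry a conditional deletion of *Chd4* in cardiomyocytes, driven by *Tnnt2-Cre*. The comparison asked where chromatin accessibility differs in hearts without cardiomyocyte CHD4. Endothelial and endocardial cells are not the cells in which this Cre is made to act, so peaks near their genes were read from a mixture of deleted and undeleted cells.

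Endothelial cells line blood vessels, and the endocardium is the endothelium that lines the inside of the heart. They are held together by adherens and tight junctions, receive survival and sprouting signals through receptor kinases such as TEK, and sense blood flow. ETS family transcription factors bind the enhancers of most endothelial genes, often with GATA, SOX and FOX factors. In the E10.5 heart the endocardium and the cardiomyocytes exchange signals that drive trabeculation, and endocardial cells give rise to valve precursors.

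The deposited data were 1 list of peaks per genotype, 12991 peaks with more signal in *Chd4-CMko*, called gained, and 2745 with more signal in WT, called lost. The authors set a 2-fold change as the limit. The lost list may be slightly incomplete as analysed here, which would lower the counts of lost peaks. No value per sample was in the lists, so the spread between replicates is unknown and the genotypes could not be tested against each other, and the read depth behind a peak is unknown. Differential peaks alone were listed, so the tissue label could not be checked against open chromatin at heart genes. Intervals for shares are Wilson 95% intervals, and those for densities are exact Poisson 95% intervals. Counting error alone is in these intervals, and adjacent peaks or genes are not independent. In whole hearts, a change in the number of endothelial cells and a change in accessible chromatin per endothelial cell cannot be told apart.

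Sequences of 10 of the peaks are given here because they lie close to a TSS, carry high scores or stand for both lists at the genes that the counts below turn on. They are the plus strand of mm10, 5′ to 3′, each 151 bases long, and no peak that overlaps an annotated UTR is printed. Capitals mark short strings of known transcription factor families found on either strand, and these strings are spelled out further on.

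The gained peak in an intron of *Pecam1* (chr11:106723018-106723168) held an AP-1 string at positions 92 to 98 and an NFAT string at positions 83 to 88.
Pecam1: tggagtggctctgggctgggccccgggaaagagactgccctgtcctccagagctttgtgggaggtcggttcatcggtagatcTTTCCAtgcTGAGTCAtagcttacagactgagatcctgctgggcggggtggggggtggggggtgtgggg

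Gained peaks of *Eng* (chr2:32672374-32672524) and *Acvrl1* (chr15:101134419-101134569), a co-receptor and receptor pair of BMP signalling, and of *Robo4* (chr9:37410204-37410354) are shown because they lie within 3 kb of an annotated TSS inside the gene. The *Eng* peak held an NFY string at 36 to 42 and again at 67 to 73, and the *Acvrl1* peak held the ETS string on the plus strand at 68 to 73 and on the minus strand at 82 to 87.
Eng: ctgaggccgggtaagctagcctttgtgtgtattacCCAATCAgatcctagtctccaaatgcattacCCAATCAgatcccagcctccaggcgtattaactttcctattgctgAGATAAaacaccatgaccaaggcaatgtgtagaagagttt
Acvrl1: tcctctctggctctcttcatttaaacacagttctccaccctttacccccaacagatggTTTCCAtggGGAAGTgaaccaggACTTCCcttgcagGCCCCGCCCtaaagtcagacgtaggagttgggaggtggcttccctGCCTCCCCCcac
Robo4: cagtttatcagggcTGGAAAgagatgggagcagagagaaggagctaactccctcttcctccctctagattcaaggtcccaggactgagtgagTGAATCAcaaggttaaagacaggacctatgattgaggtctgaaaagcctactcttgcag

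Gained peaks near *Etv2* (chr7:30639223-30639373), *S1pr1* (chr3:115737986-115738136), *Fli1* (chr9:32573765-32573915) and *Angpt2* (chr8:18705588-18705738) are shown for their scores or their genes' roles. The *S1pr1* and *Fli1* peaks each held a single NFY string on the minus strand, and none of the 11 strings searched was in the *Angpt2* peak.
Etv2: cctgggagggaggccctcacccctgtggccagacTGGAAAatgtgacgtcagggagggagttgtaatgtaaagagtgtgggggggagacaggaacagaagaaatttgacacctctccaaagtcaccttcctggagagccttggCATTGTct
S1pr1: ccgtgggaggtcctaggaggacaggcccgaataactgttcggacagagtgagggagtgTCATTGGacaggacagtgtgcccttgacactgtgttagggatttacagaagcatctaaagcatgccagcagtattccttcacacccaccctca
Fli1: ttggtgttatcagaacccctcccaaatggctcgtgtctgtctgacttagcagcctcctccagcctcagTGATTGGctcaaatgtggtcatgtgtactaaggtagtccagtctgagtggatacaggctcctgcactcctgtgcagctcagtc
Angpt2: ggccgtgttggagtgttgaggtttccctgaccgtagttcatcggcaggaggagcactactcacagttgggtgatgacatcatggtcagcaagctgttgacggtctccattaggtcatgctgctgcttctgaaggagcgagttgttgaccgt

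For the lost list, the peak inside *Erg* (chr16:95466665-95466815), which held none of the strings, and the peak downstream of *Npr3* (chr15:11745097-11745247), the highest-scoring lost peak of the set, are shown. In the *Npr3* peak a GATA string on the minus strand at 26 to 31 overlapped a MEF2 string at 27 to 35.
Erg: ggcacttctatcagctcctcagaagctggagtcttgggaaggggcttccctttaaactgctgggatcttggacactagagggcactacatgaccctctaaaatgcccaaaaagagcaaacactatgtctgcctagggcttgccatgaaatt
Npr3: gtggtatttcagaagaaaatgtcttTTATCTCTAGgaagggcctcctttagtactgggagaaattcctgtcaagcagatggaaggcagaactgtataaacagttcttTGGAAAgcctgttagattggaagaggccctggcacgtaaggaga

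Gained peaks were found at 24 of the 36 genes (66.7%, interval 50.3 to 79.8), and lost peaks at 9 (25%, interval 13.8 to 41.1). Among all 21951 protein-coding genes the same rule gave a gained peak to 37.4% and a lost peak to 10.8%. *Ets2*, *Klf4*, *Angpt1*, *Npr3*, *S1pr1*, *Ets1* and *Erg* had peaks of both kinds, which makes 7 of 36 genes, against 6.36% of all protein-coding genes. Lost peaks without any gained peak were seen at *Emcn* and *Ptprb*, and 10 genes had no differential peak: *Tek*, *Lyl1*, *Cldn5*, *Ramp2*, *Icam2*, *Nos3*, *Apln*, *Aplnr*, *Mmrn2* and *Ecscr*.

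The shares of genes depend on how much sequence the rule gives each gene, here called its territory: all positions nearest to its own TSSs, plus the gene body and 10 kb on either side. The median territory of the 36 genes was 82.5 kb, against 56.4 kb for all protein-coding genes. Genes with a peak had a median territory of 148 kb, and the 10 without one had a median of 61.3 kb, ranging from 23.3 to 176 kb. Per Mb of territory the genes had 6.60 gained peaks (interval 4.83 to 8.80), against 5.19 for all protein-coding genes when a peak counts once for each gene it is assigned to (15844 assignments) over the summed territories. When each of the 12991 peaks counts once over the merged territories, the value for all protein-coding genes is 4.77, and that of the set stays at 6.60. The lower end of the interval of the set thus lies below the background by the first count and just above it by the other, so whether the set was denser in gained peaks depends on the count. The set had 1.43 lost peaks per Mb (interval 0.688 to 2.64), which takes in the 1.01 of all protein-coding genes by either count.

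The peaks assigned to the set were 46 gained and 10 lost, so 82.1% of them were gained (interval 70.2 to 90.0). Of all listed peaks 82.6% were gained. The balance of gained and lost peaks at these genes was therefore within counting error of that in the whole series.

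**Figure D1:**
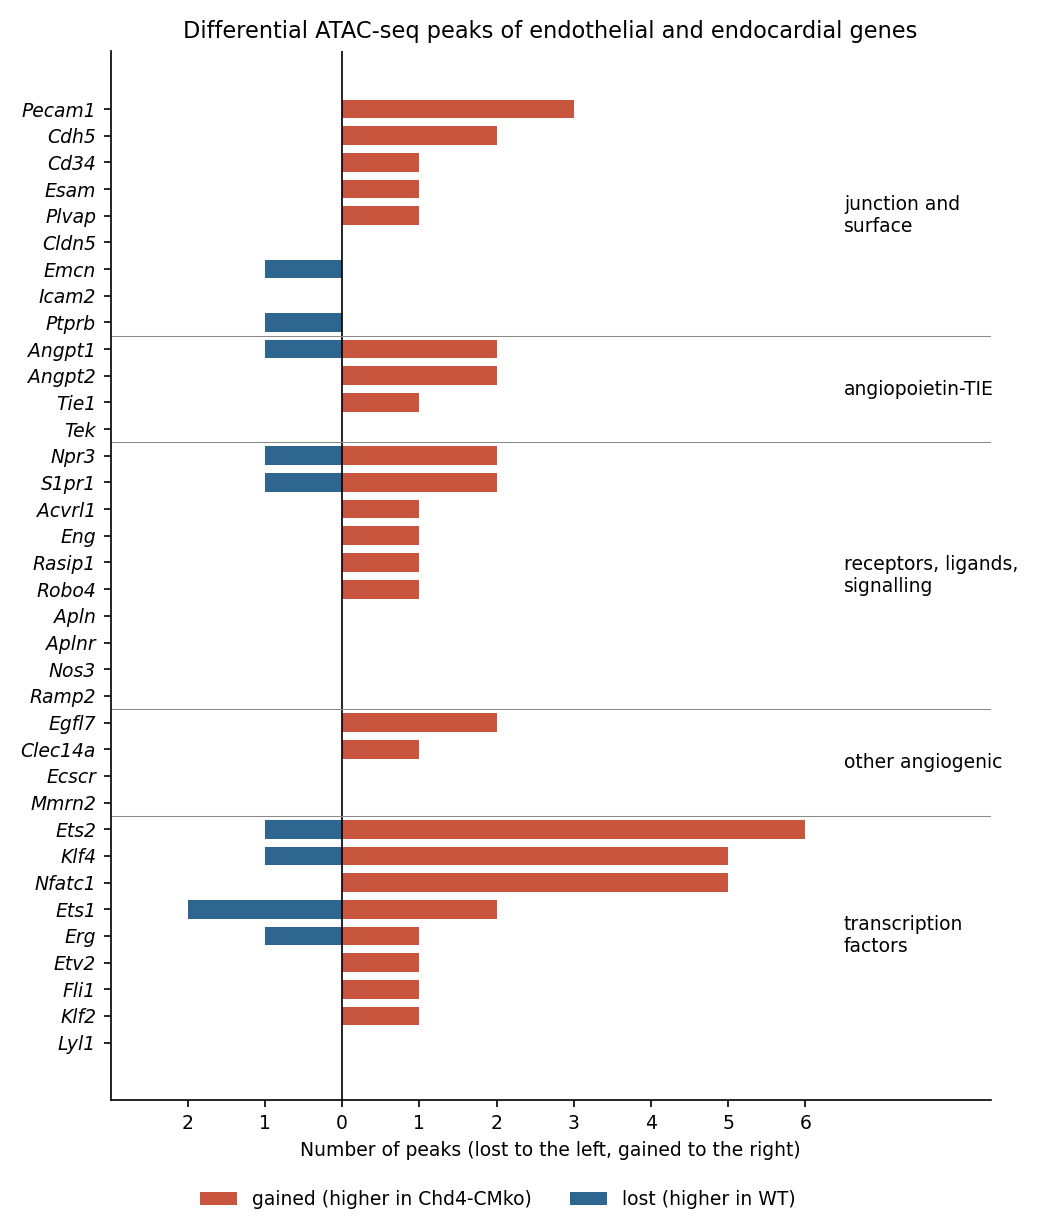
Number of gained peaks (right, red) and lost peaks (left, blue) assigned to each of the 36 genes, grouped by role; the horizontal axis counts peaks. *Ets2* has the most gained peaks (6), *Ets1* the most lost peaks (2), and 10 genes have none of either kind.

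Among the junction and surface proteins, 5 of 9 genes had gained peaks (55.6%, against 37.4% of all protein-coding genes) and 2 of 9 had lost peaks (22.2%, against 10.8%). Their density was 4.67 gained peaks per Mb (interval 2.02 to 9.20). *Pecam1*, which encodes an adhesion molecule of endothelial junctions, had 3 gained peaks. They lay in introns 6665 and 7699 bp upstream of the nearest TSS of the gene, and 23055 bp downstream of the nearest TSS, beyond the gene's 3′ end. From the gene's 5′ end these peaks lay 80637, 27535 and 110357 bp downstream. The last of these was 84.8% repeat sequence. *Cdh5*, the gene of VE-cadherin, had gained peaks 10413 and 32716 bp upstream of its TSS, both with scores in the lower part of the list (percentiles 35.7 and 18.5). *Cd34*, a surface sialomucin of endothelial and blood progenitor cells, had a gained peak 53846 bp downstream of its nearest TSS. This peak lay 417 bp from the start of *Gm37334*, which is not a protein-coding gene.

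The peaks of *Esam*, a tight junction adhesion molecule, and *Plvap*, a component of the diaphragms of fenestrae and caveolae, were assigned through the gene body and lie nearer to the start of another gene. The *Esam* peak was 1158 bp from the TSS of *Nrgn* and 8730 bp from that of *Esam*. The *Plvap* peak was in an intron of *Plvap*, inside the neighbouring gene *Gtpbp3* as well, and 12703 bp from the TSS of *Plvap*. *Emcn*, which encodes endomucin, had a lost peak 151854 bp upstream. The lost peak of *Ptprb*, the gene of the phosphatase VE-PTP, lay 31963 bp upstream, within *Ptprr*. *Cldn5*, the endothelial claudin, and *Icam2* had no differential peak, with territories of 90.8 and 70.3 kb.

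In the angiopoietin-TIE group, peaks were found at the ligands and at *Tie1*, and not at *Tek*, the receptor that the angiopoietins bind. Gained peaks were at 3 of the 4 genes (against 37.4% of all protein-coding genes) and a lost peak at 1 (against 10.8%). The density was 4.99 gained peaks per Mb (interval 1.62 to 11.6), against 5.19 and 4.77 for all protein-coding genes. *Angpt1*, the activating ligand, which is made mostly by cells outside the endothelium, had 2 gained peaks and 1 lost peak, all within its gene body of 252 kb. The gained peaks lay 54831 bp downstream of the nearest TSS in an intron and 238327 bp downstream over a coding exon, and the lost peak lay in an intron 43405 bp from the latter. Their scores were low for the gained list (percentiles 11.2 and 16.8) and near the middle of the lost list (53.2). *Angpt2*, the ligand that can block or activate TEK, had gained peaks 6116 bp upstream of its nearest TSS, over a coding exon, and 18798 bp upstream, in an intron. That TSS is the start of an internal non-coding processed transcript, and the peaks lay 35899 and 23217 bp downstream of the gene's 5′ end. The *Angpt2* gene lies within *Mcph1*, so both peaks were assigned to that gene too. *Tie1*, which encodes the partner receptor of TEK, had a gained peak 18977 bp from its TSS, just beyond the gene. *Tek* had none in a territory of 176 kb, the largest among the genes without a peak.

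Of the 10 receptors, ligands and signalling genes, 6 had gained peaks (against 37.4% of all protein-coding genes) and 2 of these also had a lost peak (against 10.8% with a lost peak and 6.36% with both). Their density was 7.32 gained peaks per Mb (interval 3.16 to 14.4). *Eng* and *Acvrl1* encode endoglin and its partner receptor in BMP signalling. The *Eng* peak (score 70.0, percentile 56.2) overlapped a coding exon 394 bp from the nearest annotated TSS, that of a transcript with a retained intron, and 25854 bp from the 5′ end of the gene. The *Acvrl1* peak (score 61.5, percentile 49.1) was in an intron, 361 bp from the start of a coding transcript and 5972 bp from the 5′ end. *Robo4*, an endothelial roundabout receptor, had a gained peak in an intron 2647 bp upstream of an internal TSS of a retained-intron transcript and 8382 bp from its 5′ end.

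*S1pr1*, the endothelial receptor for sphingosine phosphate, had a gained peak 22989 bp upstream with one of the highest scores of the set (256, percentile 95.5). A weaker gained peak lay 77707 bp upstream (percentile 37.5), and a lost peak lay 41113 bp downstream of the TSS (percentile 13.9 of the lost list). *Npr3*, the natriuretic peptide clearance receptor and a marker of the endocardium, had 2 gained peaks and 1 lost peak. Its gained peaks, 34788 bp upstream and 68339 bp downstream, were among the weakest of their list (percentiles 2.90 and 5.97). Its lost peak, 145816 bp downstream of the nearest TSS, ranked 228 of 2745 lost peaks (score 77.1, percentile 91.7). The *Rasip1* peak, at a gene for an effector of vascular tube formation, was 5737 bp upstream of *Rasip1* and 60 bp from the TSS of *Izumo1*. The apelin ligand and receptor genes *Apln* and *Aplnr*, *Nos3* (endothelial nitric oxide synthase) and *Ramp2* (a subunit of the adrenomedullin receptor) had no differential peak.

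The group of secreted and other angiogenic proteins had 3 gained peaks and no lost peak. Gained peaks were at 2 of 4 genes, against 37.4% of all protein-coding genes, and 10.8% of all had a lost peak. The density was 5.81 gained peaks per Mb (interval 1.20 to 17.0). The interval for lost peaks, 0 to 7.14 per Mb, takes in the 1.01 of all protein-coding genes. *Egfl7*, which encodes a secreted protein of the vessel wall, had a gained peak centred 5 bp from a TSS (chr2:26586581-26586731), 6642 bp from the 5′ end of the gene and over a UTR. This peak had the second highest score of the set (278, percentile 96.6) and a GC content of 81.5%, and it was also assigned to *Agpat2* and *Gm20532*. A further gained peak lay 23233 bp upstream (percentile 70.0). *Clec14a*, a vascular lectin gene, had a gained peak 65055 bp upstream that was 93.4% repeat sequence. *Mmrn2* and *Ecscr* had none.

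Transcription factors had the most peaks: 8 of 9 genes had gained peaks (37.4% of all protein-coding genes), 4 had lost peaks (10.8% of all), and the group held 22 of the 46 gained and 5 of the 10 lost peaks. It also had the most sequence, 2.65 of the 6.97 Mb of territory, with a median of 189 kb per gene. Their density of 8.30 gained peaks per Mb had an interval of 5.20 to 12.6, the lower end of which lies just above the 5.19 and 4.77 of all protein-coding genes. The intervals of the other 4 groups took in both of these values. Of the 3 genes with 5 or more gained peaks, *Ets2*, *Klf4* and *Nfatc1*, each encodes a transcription factor, and they held 16 of the 46 peaks. Among all protein-coding genes 2.31% had 5 or more. *Lyl1*, which encodes a basic helix-loop-helix factor, had no differential peak in a territory of 23.3 kb.

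*Nfatc1*, the endocardial factor needed for heart valve formation, had 5 gained peaks, all inside its gene body of 107 kb on chromosome 18. Of the 5 highest scores of the set, 3 were at this gene. The highest (316, percentile 97.9, chr18:80608557-80608707) lay in an intron 343 bp from the start of a non-coding processed transcript of the gene and 104439 bp from its 5′ end. The next (247, percentile 95, chr18:80708094-80708244) was centred 4 bp from the start of a coding transcript, 4902 bp from the 5′ end, and had a GC content of 81.5%. The third (177.5, percentile 88.8, chr18:80628982-80629132) was in an intron 20082 bp from the nearest TSS of the gene and held an ETS, a KLF and a TEAD string. The 2 weaker peaks, also in introns, had percentiles of 58.9 and 43.0 and both held a MEF2 and a KLF string.

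*Ets2* had 6 gained peaks, the most of the set, and 1 lost peak, none of them in its gene body. The gained peaks lay 45391 bp upstream (chr16:95656609-95656759, score 31.5) and 18520 bp (chr16:95736179-95736329, score 38.5), 42491 bp (chr16:95760150-95760300, score 63.5), 46510 bp (chr16:95764169-95764319, score 45), 81048 bp (chr16:95798707-95798857, score 53.5) and 102449 bp (chr16:95820108-95820258, score 75) downstream of the nearest TSS. Their percentiles ranged from 11.2 to 59.5, so this run of peaks was built of low and middling scores. The peaks at 18520 and 46510 bp were 98.7% and 90.1% repeat sequence. The lost peak, 33662 bp upstream (chr16:95668338-95668488, score 44.7), was 11729 bp from the upstream gained peak.

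The neighbouring ETS gene *Erg* lies 115 kb from *Ets2*, with no protein-coding gene between them, and *Fli1* and *Ets1* form a second such pair 93.4 kb apart on chromosome 9. *Erg* had a gained peak 22272 bp upstream, in the interval shared with *Ets2* and 69.5% repeat sequence, and a lost peak in an intron 7392 bp from its nearest TSS. *Fli1* had a gained peak 30979 bp upstream, in the interval between the pair. At *Ets1* a gained peak 91061 bp downstream of its nearest TSS and a lost peak 95420 bp downstream were 4359 bp apart, the closest gained and lost peaks of the set. *Ets1* had a further lost peak at 167101 bp and a gained peak at 832173 bp, the most distant assignment of the set. *Etv2*, needed for the first specification of endothelial and blood cells, had a gained peak 3446 bp upstream with a high score (143.5, percentile 83.4), which was assigned to *Rbm42* too. The 5 ETS genes together held 11 gained and 4 lost peaks.

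Of the flow-responsive factors, *Klf2* had a gained peak 8015 bp upstream that was nearer to the TSS of *Gm10282*, at 5758 bp. *Klf4* had 5 gained peaks, all upstream, at 30961, 104614, 107474, 176517 and 517583 bp, with percentiles of 4.03 to 52.3. Its lost peak was 148356 bp upstream (percentile 74.4), 28161 bp from the nearest of the gained peaks and between 2 of them.

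**Figure D2:**
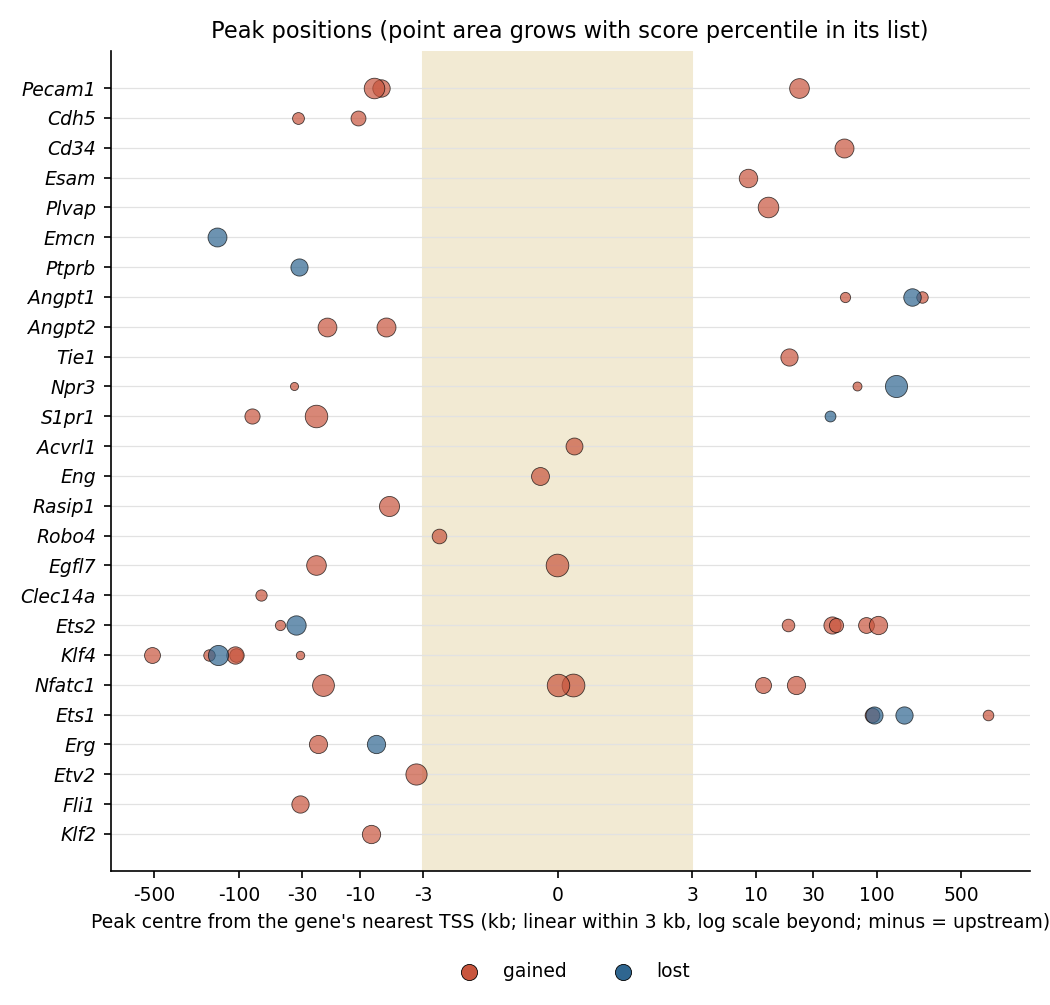
Distance of each peak centre from the nearest TSS of its gene, in kb (linear within 3 kb, log scale beyond, negative values upstream), for the 26 genes with a peak; red points are gained, blue points are lost, and point area grows with the score percentile within the list. Points in the shaded 3-kb window belong to *Acvrl1*, *Eng*, *Robo4*, *Egfl7* and *Nfatc1*, and no lost peak lies there.

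With every annotated TSS of a gene counted, 5 of 36 genes (13.9%, interval 6.08 to 28.7) had a gained peak within 3 kb, namely *Eng*, *Egfl7*, *Nfatc1*, *Robo4* and *Acvrl1*, against 12.3% of all protein-coding genes. Counting protein-coding transcripts only left 4 genes (11.1%), against 9.90%. With the 5′ end of the gene as its only start, 0 of 36 genes had a gained peak within 3 kb (upper bound 9.64%), against 8.13% of all protein-coding genes. The last 2 sets of starts were tried after the positions had been seen. Lost peaks lay within 3 kb of a TSS of their gene at 0 of 36 genes under each of the 3 sets, against 1.23% of protein-coding genes with every TSS counted.

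Of the 46 gained peaks, 6 were within 3 kb of a TSS of their gene, 26 lay 3 to 50 kb away and 14 lay farther. By position, 18 were upstream of the gene, 12 downstream, 11 in introns, 3 over coding exons and 2 over UTRs. Of the 10 lost peaks, 4 lay 3 to 50 kb from the TSS and 6 farther, with 4 upstream, 4 downstream and 2 in introns, those of *Angpt1* and *Erg*. Assignment by nearest TSS held for 41 of the 46 gained peaks and for all 10 lost peaks. The other 5 gained peaks, among them those of *Esam*, *Plvap*, *Rasip1* and *Klf2*, were nearer to another protein-coding gene. In all, 10 gained peaks were assigned to at least 1 other protein-coding gene. No expression or contact data were used here, so which gene a distal peak acts on is unknown.

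When every annotated gene start was considered, 13 of the 46 gained peaks (28.3%, interval 17.3 to 42.5) were within 3 kb of a TSS, against 30.6% of all gained peaks. For lost peaks this was 0 of 10 (upper bound 27.8%), against 16.7%. Among the 13, peaks of *Cd34*, *Klf4*, *Ets2*, *Egfl7* and *Cdh5* lay 417, 162, 389, 1844 and 2240 bp from starts of genes that are not protein-coding. Mean GC content was 55.9% ± 8.04 (SD, n = 46 peaks) for the gained peaks and 56.7% ± 8.55 over all gained peaks. It was 49.9% ± 5.05 (SD, n = 10 peaks) for the lost peaks and 50.5% ± 5.85 over all lost peaks. The median score percentile was 51.7 for gained and 56.3 for lost peaks. Of the gained peaks, 8 were above percentile 75 and 11 below percentile 25. Repeat sequence covered more than 50% of 7 gained peaks (15.2%), against 10.2% of the gained list, and of no lost peak. The TSS shares of the whole lists lay within the intervals of the set.

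**Figure D3:**
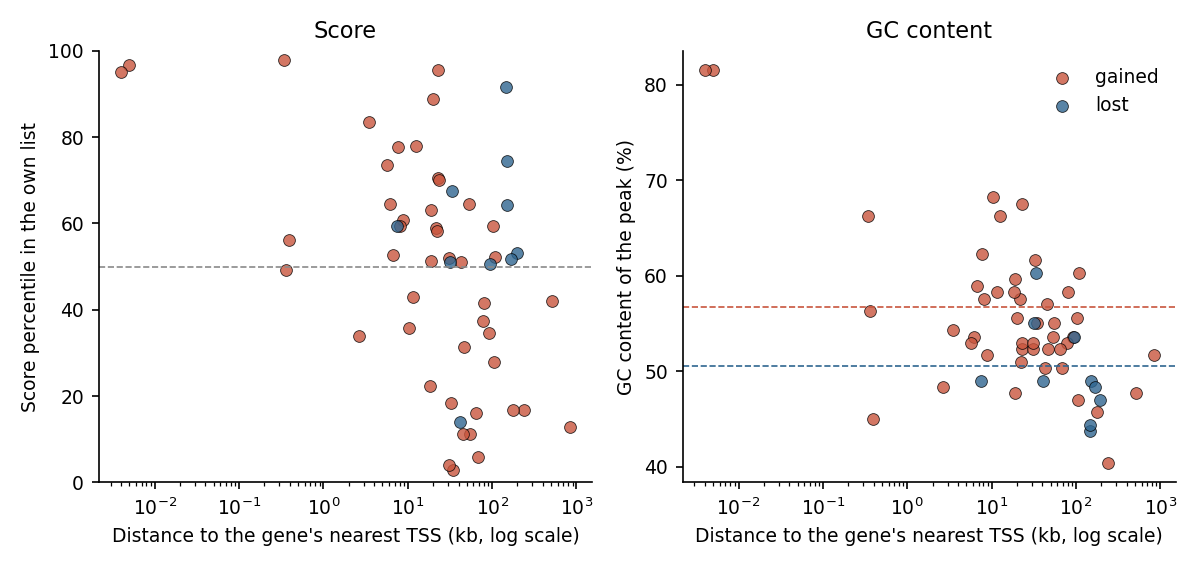
Score percentile within the own list (left) and GC content (right) of each peak against distance to the nearest TSS of its gene (kb, log scale), red for the 46 gained and blue for the 10 lost peaks; dashed lines mark percentile 50 (left) and the mean GC content of each whole list (right). The *Egfl7* and *Nfatc1* peaks at 5 and 4 bp from a TSS have the highest GC content, 81.5%, and scores at percentiles 96.6 and 95.

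Short strings of 11 factor families were searched on both strands with no mismatch. The ETS string (GGAAGT), for the family of the endothelial regulators, was found in 4 of the 46 gained peaks (8.70%, interval 3.43 to 20.3), those of *Nfatc1*, *Ets2*, *Acvrl1* and *Clec14a*, against 14.0% of all gained peaks. The GATA factor string (AGATAA) was in 9 peaks (19.6%, interval 10.7 to 33.2), against 11.1%. The KLF string (GGGNGNGGC) was found in 15 (32.6%, interval 20.9 to 47.0), against 24.4%. The AP-1 string (TGANTCA) was in 5 (10.9%, interval 4.73 to 23.0), against 5.08%. The NFAT string (TGGAAA), which shares its core with that of ETS, was in 7 (15.2%, interval 7.57 to 28.2), against 8.52%. The share in the whole gained list lay inside the interval of the set for each of the 11 strings, so no string stood apart at this number of peaks.

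The remaining strings were as close. The SOX string (ACAATG) was in 8.70% of the gained peaks of the set, against 4.94% of all gained peaks. The MEF2 string (TANNNNTAG) was in 13.0%, against 12.3%, and the TEAD string (ACATTCC) was in 4.35%, against 3.76%. The NFY string (CCAATNA) was in 15.2%, against 17.0%. The E-box (CAGCTG) was in 13.0%, against 13.2%, and the CTCF string (CCANNAGGG) was in 6.52%, against 4.71%. In the 10 lost peaks, SOX was in 3 (those of *Ets1*, *S1pr1* and *Klf4*), GATA in 2, KLF, MEF2 and NFAT in 1 each, and the other strings in none (upper bound 27.8%). Among all lost peaks SOX was in 10.4%, just below the lower end of the interval of the set (10.8 to 60.3), which rests on 3 peaks. GATA was in 12.2% of all lost peaks, within the interval of the set (5.67 to 51.0). A match is a run of letters in a window and not a binding site.

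**Figure D4:**
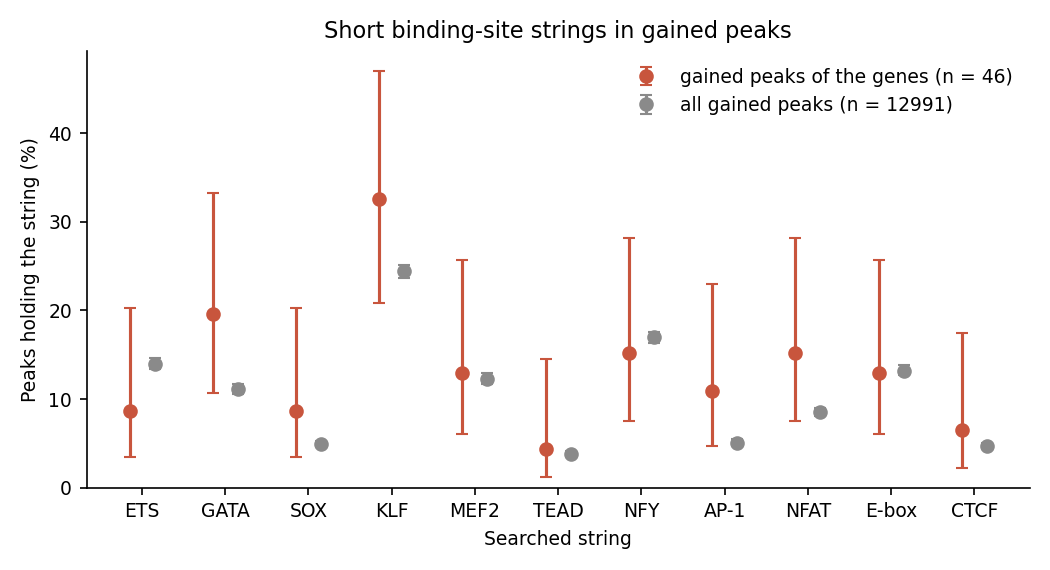
Share of gained peaks holding each of the 11 strings, in percent with Wilson 95% intervals, for the 46 peaks of the set (red) and all 12991 gained peaks (grey). Every grey point lies within the red interval, including ETS (8.70% against 14.0%) and GATA (19.6% against 11.1%).

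A further list of 44 endothelial genes gave like numbers, with gained peaks at 28 (63.6%, against 37.4% of all protein-coding genes) and lost peaks at 12 (27.3%, against 10.8%). Its density was 6.96 gained peaks per Mb (interval 5.63 to 8.50) and 1.52 lost peaks per Mb (interval 0.942 to 2.33). Here the lower end of the interval for gained peaks lay above both values for all protein-coding genes, and the 36-gene set, at 6.60, lay within it. The arterial ligand gene *Efnb2* had 9 gained and 3 lost peaks, the lymphatic regulator *Prox1* had 8 gained, and the co-receptor gene *Nrp2* had 7 gained and 2 lost. *Nrg1*, the endocardial ligand for trabeculation, had 6 gained and 1 lost, *Kdr* had 5 and 1, *Nrp1* and *Stab2* had 5 gained each, and *Foxc1* had 1 gained and 5 lost.

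Gained peaks without a lost one were also seen at *Ccm2* (4), *Flt4*, *Lmo2*, *Vwf* and *Heg1* (3 each). *Mef2c* had 4 gained and 2 lost, *Nr2f2* and *Foxo1* had 4 and 1 each, and *Adgrl4* and *Hapln1* had 3 and 1 each. *Hey2* had 1 lost peak and *Calcrl* had 2, with no gained peak at either. Of these 44 genes 8 had a gained peak within 3 kb of an own TSS (18.2%, against 12.3% of all protein-coding genes).

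Markers of the other cells of the heart were counted by the same rule, with each peak counted once over merged territories, beside 37.4% of all protein-coding genes with a gained and 10.8% with a lost peak. Cardiomyocyte genes had 8.01 gained peaks per Mb (interval 4.66 to 12.8), with gained peaks at 12 of 16 genes and lost peaks at 1. Erythroid genes had gained peaks at 2 of 11 and lost peaks at 6 of 11, with 10 lost peaks at 15.5 per Mb (interval 7.44 to 28.5), some of them shared between neighbouring genes of the list. Epicardial and mesenchymal genes had gained peaks at 6 of 10 (4.89 per Mb, interval 2.35 to 8.99) and lost peaks at 7 of 10 (4.40 per Mb, interval 2.01 to 8.35). For lost peaks, the interval of the erythroid list lay above that of the endothelial set, and that of the epicardial and mesenchymal list overlapped it. Macrophage genes had gained peaks at 2 of 8 (2.16 per Mb, interval 0.446 to 6.32) and a lost peak at 1. The part of a changed cell mixture in the endothelial counts was not tested.

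**Figure D5:**
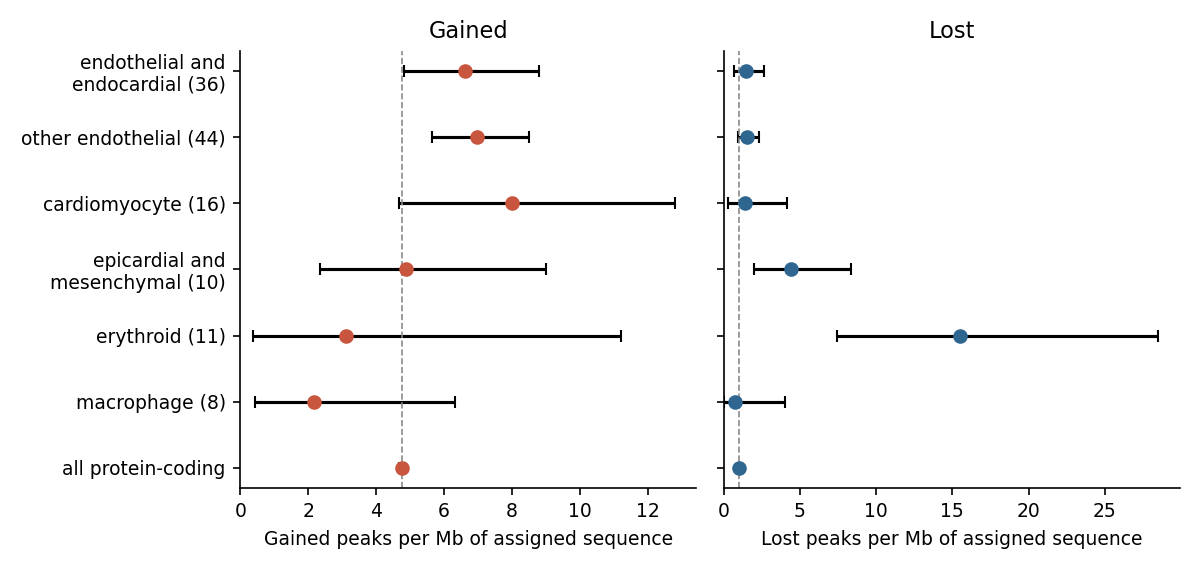
Gained (left) and lost (right) peaks per Mb of assigned sequence for the 36 endothelial and endocardial genes, 5 other lists (number of genes in brackets) and all protein-coding genes, each peak counted once over the merged territories of a list, with exact Poisson 95% intervals; dashed lines mark all protein-coding genes (4.77 and 1.01). The 36 genes sit at 6.60 and 1.43, and the erythroid list at 15.5 lost peaks per Mb.

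The counts depended on the reach of the rule. With the gene body and 10 kb around it as the only criterion, gained peaks were at 14 of the 36 genes (38.9%), against 30.3% of all protein-coding genes, and lost peaks at 2 (5.56%), against 7.30%. With it 21 of the 46 gained and 2 of the 10 lost peaks remained. When the nearest TSS of any gene type was used, gained peaks were at 20 genes (55.6%), against 32.6%, and lost peaks at 5 (13.9%), against 8.16%.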

How the data were processed

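ATAC-seq was performed by the authors on 8 samples of pooled, cryopreserved and dissociated E10.5 hearts, 4 per genotype. Per the labels and the study's methods, reads were aligned to mm10 with BWA-MEM, peaks were called with HOMER (version 4.10.3) and annotated with ChIPseeker (version 1.20.0), and a 2-fold change was set as the limit. The study's sources differ on how many hearts were pooled. Duplicate handling, any Tn5 shift of reads and the way in which samples were merged per genotype are not given in the sources used here, and each can change which peaks were listed. The authors deposited 1 BED list per genotype with a peak score, whose scale is not stated, so scores were used as percentiles within a list. Read depth is not in these lists.

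Peaks (151 bp, except 1 lost peak) were placed by their centre on GENCODE M21 (GRCm38, the same build as mm10) with Python (version 3.11.15), numpy, scipy (version 1.17.1) and pysam (version 0.24.0). A TSS was the start of any transcript of a protein-coding gene unless another set is named. RefSeq starts were tried too but matched 18 of the 36 genes, so that count is void (1 of 18, *Egfl7*, with a gained peak within 3 kb, 5.56%, against 8.69% of matched protein-coding genes). Gene assignment and string searches were tested on simulated data. The genes, lists and strings were chosen with earlier results of these data known. All genes with a peak were named, and other endothelial genes where they had 3 or more gained peaks or a lost peak. Positions and scores were given for the peaks nearest a TSS, for *Ets2* and for the 5 highest scores, and further ones were added after the values were seen. The erythroid marker *Ahsp* was not matched. Alternatives covered the assignment rule, score limits, peak numbers, TSS sets, repeats and string length.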

Additional observations from a re-analysis of the deposited data

How the results depend on the processing

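Of 93 values under 15 alternative settings, 70 kept within 1.5 times the count or within the interval or SD, and 23 moved. 4 of the settings were chosen after seeing the data: starts of protein-coding transcripts, the 5′ end of the gene, peaks under 50% repeat, and each peak counted once over merged territories. Genes with a gained peak (24) fell to 14 with the gene body alone, 5 within 3 kb of an own TSS and 10 when only peaks numbered up to 2000 in their deposited names were used. Under that last setting gained peaks were at 27.8% of the set and 22.2% of all protein-coding genes, and lost peaks at 8.33% and 2.63%. Genes with a lost peak (9) fell to 2, 0 and 3 under the same settings and to 5 with the nearest TSS of any gene type. Lost peaks (10) fell likewise to 2, 0, 3 and 5. Gained peaks (46) fell to 21, 6 and 17, to 28 with any gene type and to 25 with scores at or above the median of the list. The gained share of peaks (82.1%) was 91.3% with the gene body alone and 100% within 3 kb of an own TSS, where the share within 3 kb of a TSS is 100% by construction. The ETS string was in 80.4% of gained peaks with 1 mismatch allowed and in 0 with the longer string. Genes with a gained peak within 3 kb of an own TSS (5) fell to 0 when only the 5′ end was used. Apart from the mismatch, the longer string and the nearest TSS of any gene type, these limits remove peaks or starts by construction. Counting each peak once over merged territories took the density of gained peaks of all protein-coding genes from 5.19 to 4.77 per Mb and that of lost peaks of the erythroid genes from 20.9 to 15.5, and left the set at 6.60. No paired analysis was possible because the lists hold no value per sample, and no replicate could be left out for the same reason. Depth limits are unknown, since the lists give no reads per sample.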
